A study of Mus musculus with 2 samples.

Results

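The 5 microRNA genes Mir675, Mir483, Mir335, Mir296 and Mir298 lie in imprinted regions of the mouse genome other than Dlk1-Dio3, namely those of H19, Igf2, Mest and Gnas. They were taken by name from GENCODE mouse release M21 and are 5 of the 2202 microRNA genes counted in the series. The samples were gastrocnemius, a calf muscle, of 2-month-old female B6CASTF1/J mice, an F1 hybrid of the C57BL/6J and CAST/EiJ strains, and RNA of under 30 nt was sequenced. There are 2 libraries in 1 group, given as biological replicates 1 and 2. Separate animal numbers stand in their labels beside 1 shared donor code, so whether the libraries come from 2 animals is not settled here, and the counts are not split by parental allele. Without a second condition, the values describe levels in this muscle and how far the 2 libraries differ.

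Imprinted genes are read from only one parental copy, and many of them act on growth before and shortly after birth. Igf2, a growth factor of the insulin family, and Mest are read from the paternal copy in the mouse, and H19, a long noncoding RNA, from the maternal copy. A microRNA hairpin is cut from a longer transcript and yields a short mature strand from either arm. Its seed, bases 2 to 8, pairs with target messages. In the mouse placenta, miR-675 is released from H19 and restrains growth. Mir483 is carried in Igf2 and is known from embryonal tumours in humans. Mir335 is carried in Mest and is known in human breast cancer as a microRNA that limits spread. Mir296 has been described in human endothelium and in mouse embryonic stem cells, where it acts on Nanog, a pluripotency factor. Mir298 is known in the mouse for acting on Bace1, a protease of the amyloid pathway.

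All 5 genes matched the RefSeq table of microRNA sequences (build GRCm38.p6), and the hairpins were the same as the annotated GENCODE transcripts. The 10 mature strands are shown because the files count reads per hairpin and do not say which arm they came from. The seed of each is in capitals, 5′ to 3′.
miR-675-5p: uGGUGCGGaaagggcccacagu
miR-675-3p: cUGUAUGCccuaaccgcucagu
miR-483-5p: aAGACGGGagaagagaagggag
miR-483-3p: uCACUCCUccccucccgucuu
miR-335-5p: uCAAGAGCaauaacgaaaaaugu
miR-335-3p: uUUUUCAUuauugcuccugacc
miR-296-5p: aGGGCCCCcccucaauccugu
miR-296-3p: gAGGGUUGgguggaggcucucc
miR-298-5p: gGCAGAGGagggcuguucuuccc
miR-298-3p: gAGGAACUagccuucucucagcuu
The 10 strands carried 10 different seeds, and 0 of the 1728 other mature sequences in that table shared one of them. The 5 genes are thus no seed family. The strands were 21 to 24 nt long. Their GC content ran from 30.4% in miR-335-5p to 68.2% in miR-296-3p. No stretch of 18 nt of any strand occurred in another annotated microRNA gene, and outside the own gene it was found only in H19 transcripts, for both strands of Mir675. Introns and regions between genes were not searched, so whether reads also align there was not tested.

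The hairpins of Mir335 and Mir675 are printed with their mature strands in capitals. A hairpin is the unit that was counted. Mir335 had the most counts of the 5, and Mir675 is the only one that lies in exons of its host.
Mir675 hairpin: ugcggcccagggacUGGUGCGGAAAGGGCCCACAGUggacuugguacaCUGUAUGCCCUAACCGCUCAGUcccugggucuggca
Mir335 hairpin: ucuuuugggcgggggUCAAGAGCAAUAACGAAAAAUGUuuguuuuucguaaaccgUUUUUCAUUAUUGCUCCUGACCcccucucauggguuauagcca
The Mir335 hairpin had a GC content of 42.9%, below the median of 50.8% over all 2202 hairpins. The other 4 were above that median, at 53.7% for Mir298, 58.9% for Mir483, 63.1% for Mir675 and 63.3% for Mir296.

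In the mm10 assembly, Mir675 (ENSMUSG00000076275.1) lies on the minus strand at chr7:142577064-142577147. It lies within an exon in 3 of the 4 H19 transcripts that span it and in an intron of the other. Mir483 (ENSMUSG00000070140.1) lies 77776 bp away on the same strand at chr7:142654924-142654996, in an intron in 7 of 7 Igf2 transcripts that span it. It also lies in an intron of Gm49394, an annotated protein-coding gene on that strand. Mir335 (ENSMUSG00000065501.1) lies on the plus strand at chr6:30741299-30741396, in an intron in 7 of 7 Mest transcripts that span it. Mir296 (ENSMUSG00000065521.1) at chr2:174267047-174267125 and Mir298 (ENSMUSG00000065410.1) at chr2:174267504-174267585 lie on the minus strand, 378 bp apart. No annotated gene, microRNA genes aside, contains either of them. The nearest gene to both is Nespas, the antisense transcript of the Gnas region, on their own strand at a distance of 14112 bp from Mir296 and 13652 bp from Mir298. None of the 5 overlaps another microRNA gene. Within 100 kb there was no other counted microRNA gene except the members themselves and, on the other strand near Mir296 and Mir298, Gm27591, which had 0 counts in both libraries.

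**Figure D1:**
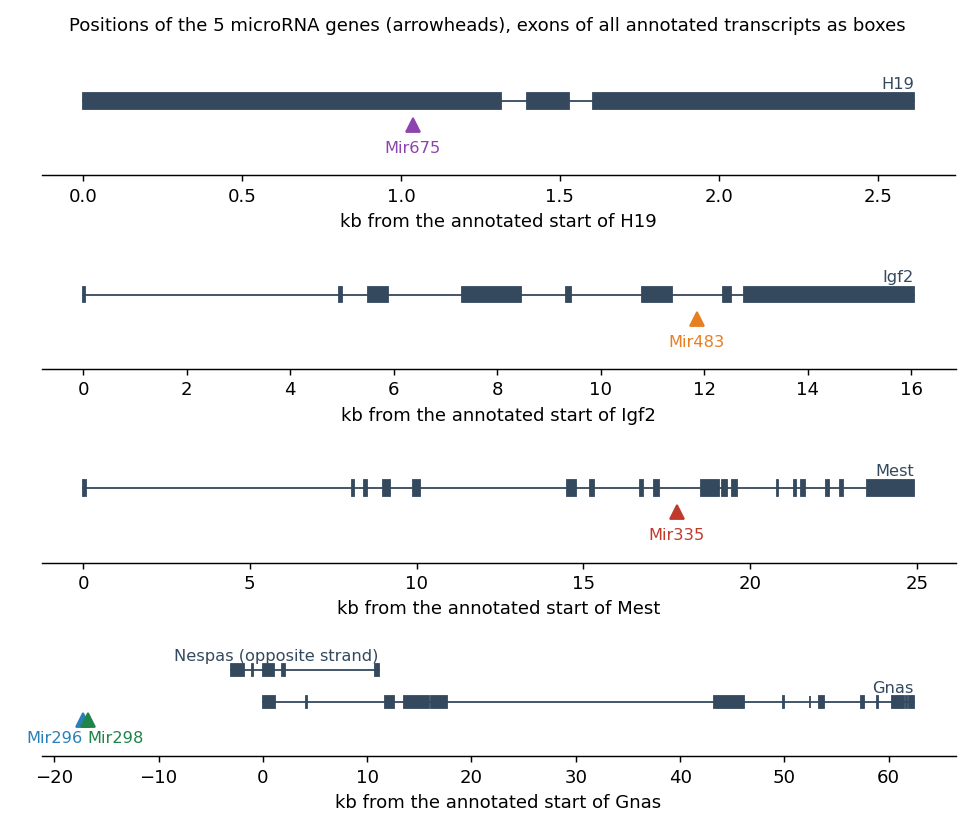
Positions of the 5 microRNA genes relative to H19, Igf2, Mest and Gnas, in kb from each gene's annotated start in its direction of transcription. Boxes are exons of all annotated transcripts, lines join them, and arrowheads mark the microRNAs. Mir675 sits in an exon block of H19, Mir483 and Mir335 sit between exon blocks, and Mir296 and Mir298 sit outside Gnas and Nespas.

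Own-strand counts over all microRNA genes summed to 1950204 in replicate 1 and 2291821 in replicate 2, so that 3 counts, the limit that a count of 0 allows, equal 1.54 and 1.31 CPM (counts scaled to the library's total of such counts). A gene with 10 or more counts in each library is called detected, which held for 278 of 2202 genes. Multimapping reads, 70.1% and 72.3% of all reads listed, are in no gene. Of the markers for the labelled tissue, 9 of 9 striated muscle microRNAs were detected, with 2.79% of counts in replicate 1 and 4.65% in replicate 2. Reads that fit both copies of Mir1a or of Mir133a are not in these shares, and Mir206 led the list among the reads placed on 1 gene. Markers of other cells had counts too. Smooth muscle markers took 20.3% and 9.73%, the endothelial marker 12.1% and 15.7%, fibroblast markers 0.149% and 0.151%, and blood cell markers 0.230% and 0.154%. Reads that fit more than 1 of Mir199a-1, Mir199a-2 and Mir199b are not in the fibroblast share, which Mir214 led. The summed shares hide spread within a list. The log2 ratio, replicate 1 over replicate 2, ran from −3.03 (Mir499) to −0.18 (Mir133a-2) among striated muscle markers. Among detected fibroblast markers it ran from −0.15 (Mir214) to 1.66 (Mir199b), and among blood cell markers from −0.04 (Mir150) to 1.52 (Mir223). The liver marker Mir122 took 0.0110% and 0.00109%, and the marker of the endocrine pancreas, Mir375, 4.61e-04% and 3.05e-04%, below the detection minimum. Of 4 neural markers found in the files, Mir137 was detected, and Mir9-1, Mir9-2 and Mir9-3 had 0 counts in both libraries. Reads that fit more than 1 of these Mir9 genes are in no gene, so their 0 counts do not show absence. Neural markers had a summed share of 0.00733% and 0.00148%. The part of these cells in the values below was not tested. In whole tissue, fewer cells of a type and less RNA per cell cannot be told apart.

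Mir335 held most of the counts of the 5 genes. It had 4371 counts in replicate 1 and 4474 in replicate 2, or 2241 and 1952 CPM, a mean of 2097 ± 204 CPM (SD, n = 2). Exact Clopper-Pearson 95% intervals were 2175 to 2309 and 1895 to 2010.2 CPM. Like all intervals here, they cover counting error of the reads only, not spread between libraries or animals. PCR copies of 1 molecule are counted apart, so the counting error of molecules can be larger. Mir335 took 94.6% of the counts of the 5 genes in replicate 1 and 92.9% in replicate 2. It had rank 43 of 2202 genes by mean CPM and lay above 84.5% of the detected genes. Ranks here and below rest on reads placed on 1 gene, so genes with near-identical copies can rank lower than their microRNA as a whole. Mir206, the skeletal muscle microRNA, had 11.9 times as many counts in replicate 1 and 21.5 times as many in replicate 2.

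Mir483, the microRNA of the Igf2 intron, came next with 162 counts in replicate 1 and 221 in replicate 2. In CPM these are 83.1 (70.8 to 96.9) and 96.4 (84.1 to 110.0), a mean of 89.7 ± 9.45 CPM (SD, n = 2). Its rank was 152, and it lay above 45.3% of the detected genes, close to the middle of that distribution. Mir335 held 27.0 times as many counts in replicate 1 and 20.2 times as many in replicate 2.

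Mir298, which had more counts than Mir296 of the same Gnas region, had 47 and 66 counts in replicates 1 and 2. That is 24.1 CPM (17.7 to 32.0) and 28.8 CPM (22.3 to 36.6), a mean of 26.4 ± 3.32 CPM (SD, n = 2) and rank 221. Its values were above the 3-count limit in both libraries by a wide margin.

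Mir675, the microRNA of H19, had 33 counts in replicate 1 and 46 in replicate 2. Its levels were 16.9 CPM (11.6 to 23.8) and 20.1 CPM (14.7 to 26.8), a mean of 18.5 ± 2.23 CPM (SD, n = 2) and rank 235. It lay above 15.5% of the detected genes only. Computed from counts of either strand, scaled to their own total, its mean was 28.0 CPM. Its counts were then 36 and 51, while the totals fell to 1485632 and 1607502. The smaller totals lift other genes too, as for Mir335 from 2097 to 2863 CPM. Mir675 lies in an exon of most H19 transcripts that span it, on the same strand. Pieces of H19 RNA from that stretch would be counted with it, and their part was not tested.

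Mir296 was the lowest of the 5, with 6 counts in replicate 1 and 11 in replicate 2. It had 3.08 CPM (1.13 to 6.70) and 4.80 CPM (2.40 to 8.59), a mean of 3.94 ± 1.22 CPM (SD, n = 2) and rank 302. Its counts were above the 3-count limit in both libraries, but its interval in replicate 1 reaches below that limit of 1.54 CPM. Mir296 missed the detection minimum in replicate 1, so 4 of the 5 members were detected. Mir206 held 8681 times as many counts in replicate 1 and 8737 times as many in replicate 2.

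**Figure D2:**
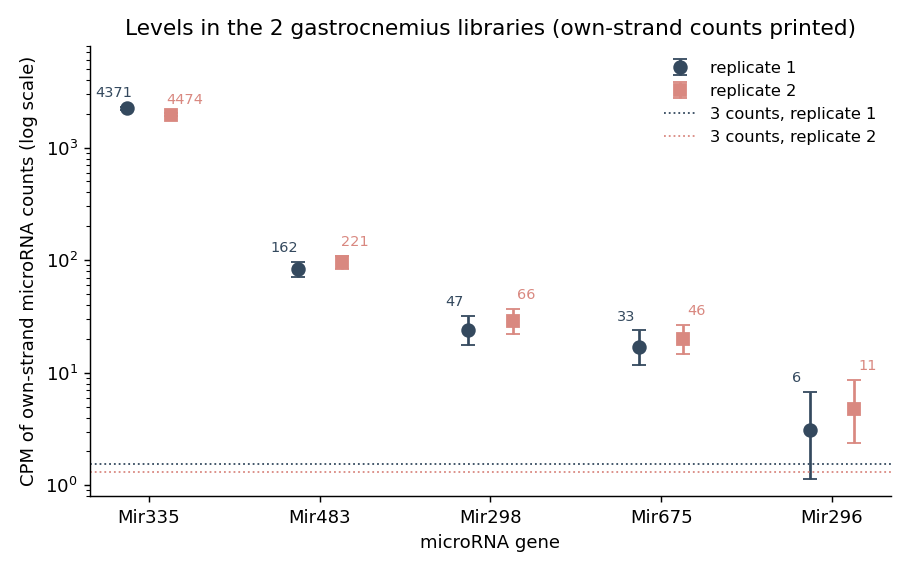
Level of each microRNA gene in CPM of own-strand microRNA counts on a log scale, replicate 1 (circles) and replicate 2 (squares), with exact 95% intervals of the counting error and the own-strand counts printed. Dotted lines mark 3 counts in each library. Mir335 stands at 2241 and 1952 CPM, and the other 4 lie between 3.08 and 96.4 CPM.

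The order of levels, Mir335, Mir483, Mir298, Mir675 and Mir296, was the same in both libraries. It was also the same per base of annotated gene, although reads of under 30 nt cover about 1 mature strand and levels were therefore not divided by length. The library values of neighbours in this order did not overlap. Counting error separated most of them within each library as well. Mir483 exceeded Mir298 by 3.45 times in replicate 1 (exact binomial 95% interval 2.48 to 4.88) and 3.35 times in replicate 2 (2.53 to 4.48). Mir675 exceeded Mir296 by 5.50 times (2.28 to 16.1) and 4.18 times (2.13 to 8.95). Mir298 and Mir675 were the exception, with ratios of 1.42 (0.893 to 2.29) and 1.43 (0.970 to 2.14), so their order was not resolved within either library at this depth. Whether the different sequences were captured equally well was not tested. The order is therefore one of counts, and both libraries could share a bias in it.

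**Figure D3:**
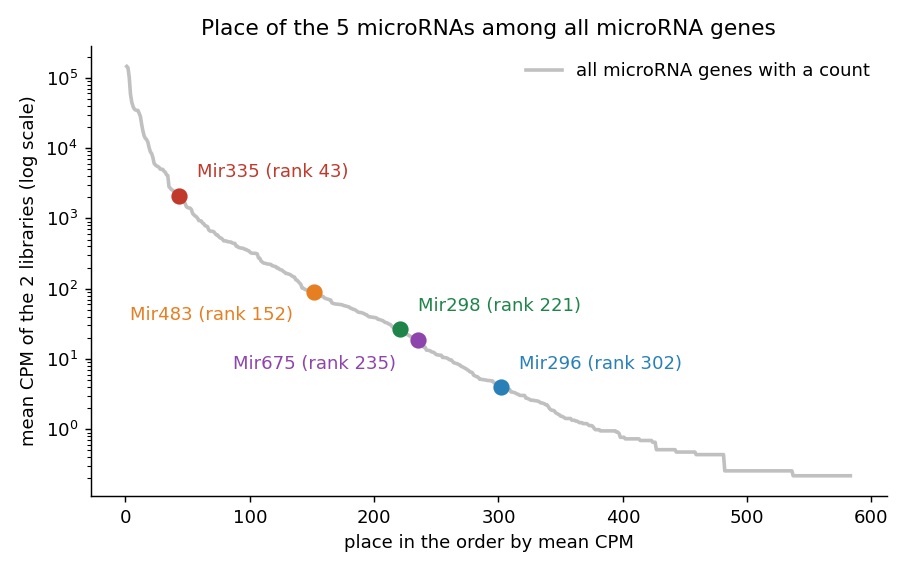
Mean CPM of the 2 libraries on a log scale against the place in the order by mean CPM, for the 583 microRNA genes with a count in either library (line) and the 5 genes (points). Mir335 at rank 43 lies on the steep upper part of the curve, and the other 4 spread from rank 152 to rank 302.

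The members that share a region were compared as shares of their own sum, which do not depend on the scaling of the libraries. Mir298 made up 88.7% of the 53 counts of Mir298 and Mir296 in replicate 1 (95% interval 77.0 to 95.7) and 85.7% of 77 in replicate 2 (75.9 to 92.6). The share did not differ detectably between the libraries (two-sided Fisher's exact test, p = 0.792, adjusted p = 1.00 over 2 pairs). Mir298 thus had 7.83 times (3.34 to 22.4) and 6.00 times (3.15 to 12.6) as many counts as Mir296. The genes lie 378 bp apart on 1 strand. Whether their sequences were captured equally well was not tested. Mir483 made up 83.1% of the 195 counts of Mir483 and Mir675 in replicate 1 (77.1 to 88.1) and 82.8% of 267 in replicate 2 (77.7 to 87.1), a ratio of 4.91 (3.36 to 7.37) and 4.80 (3.48 to 6.75). That share did not differ detectably either (two-sided Fisher's exact test, p = 1.00, adjusted p = 1.00). Of the microRNAs of Igf2 and H19, Mir483 thus had more counts in both libraries. Whether the sequences of this pair were captured equally well was not tested either. The counts are not split by parental allele, so the ratio does not compare the parental copies.

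None of the detected members passed the call between the libraries. Over all 278 detected genes, 33 (11.9%) were called at an adjusted exact binomial p under 0.05 and at least 2-fold, and 0 of the 4 detected members were among them. This test compares these 2 libraries, not conditions, and covers counting error only. Without the minimum fold, 1 of the 4 detected members had an adjusted exact binomial p under 0.05, beside 153 (55.0%) of the 278 detected genes. The edgeR exact test called 7 genes (2.52%), but it takes the spread from the same 2 libraries whose difference it tests, so nothing is read from it about the members. The ratio of Mir335, replicate 1 over replicate 2, was 1.11 (exact binomial 95% interval 1.07 to 1.16), or 0.15 on the log2 scale (SE 0.031, counting error), with an adjusted exact binomial p of 2.49e-06. The same threshold without a minimum fold was passed by 55.0% of all detected genes.

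The other members had lower values in replicate 1, each within counting error. The ratio, replicate 1 over replicate 2, was 0.834 for Mir483 (0.676 to 1.03, adjusted exact p = 0.127). It was 0.812 for Mir298 (0.545 to 1.20, adjusted exact p = 0.393) and 0.819 for Mir675 (0.505 to 1.30, adjusted exact p = 0.511). Mir296 was not tested, and its ratio was 0.643 (0.188 to 1.83). Every one of these intervals spans 1 and also holds sizeable differences, so these p-values do not show that the libraries are alike for these genes. On the log2 scale the 4 detected members lay between −0.30 and 0.15. The median absolute log2 ratio over all detected genes was 0.37.

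**Figure D4:**
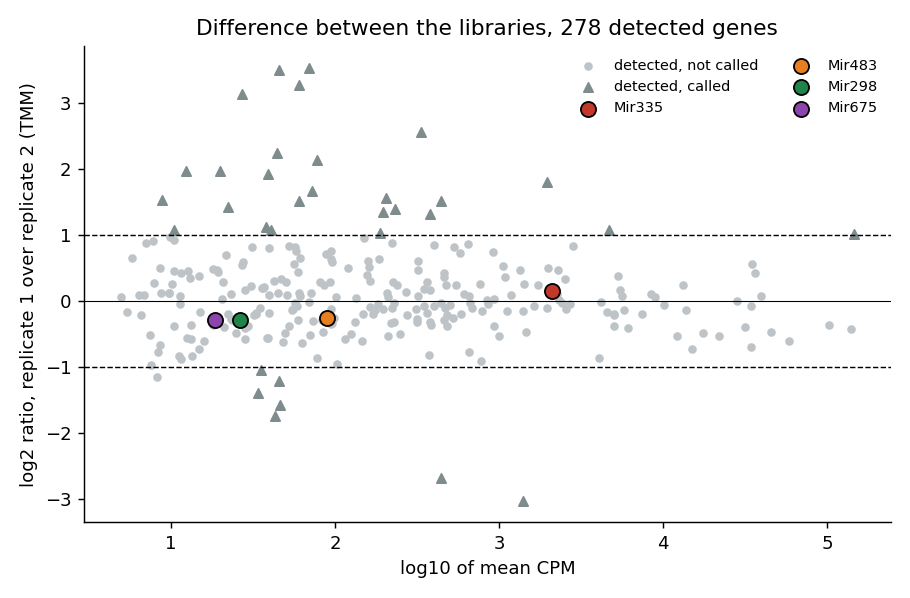
Log2 ratio, replicate 1 over replicate 2 after TMM scaling, against log10 of mean CPM for the 278 detected microRNA genes. Triangles are genes called at 2-fold and an adjusted exact p under 0.05, dashed lines mark 2-fold, and coloured points are the 4 detected members, which lie between −0.30 and 0.15.

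The genes most like each detected member in level, by Euclidean distance of log2(CPM + 1) over the 2 libraries, numbered 12 in all. Those nearest to Mir335 were Mir27a, Mir28a and Mir29c, at distances of 0.154, 0.229 and 0.235. For Mir483 they were Mir3068, Mirlet7a-2 and Mir378d (0.129, 0.143 and 0.154). For Mir298 they were Mir378b, Mir29b-1 and Mir3061 (0.144, 0.189 and 0.220). For Mir675 they were Mir7689, Mir133b and Mir323 (0.085, 0.251 and 0.297), of which Mir323 lies in the imprinted Dlk1-Dio3 region. That made 1 of the 12 a microRNA of another imprinted list. Several of these, such as Mir133b, have near-identical copies elsewhere, and reads that fit more than 1 copy are missing from their counts. With 2 libraries the measure reflects mainly the level.

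Beside the microRNAs of the other imprinted regions, the 5 genes were intermediate in summed level. Of all counts, 0.237% (0.230 to 0.244) in replicate 1 and 0.210% (0.204 to 0.216) in replicate 2 fell to them. The mean share was 0.224% ± 0.0188 (SD, n = 2). Without Mir335 their share was 0.0127% and 0.0150%. The 59 microRNA genes of the Dlk1-Dio3 region on chromosome 12 held 1.89% and 1.79%, with 45 detected and Mir411 and Mir127 as the most abundant at means of 5476 and 4549 CPM. The 119 microRNA genes within Sfmbt2, a Polycomb-group gene that is imprinted in the mouse placenta, held 0.0431% and 0.0217%. Of these, 5 were detected and 109 had no count in either library. Mir467e and Mir467d led them at means of 151 and 88.6 CPM. The Sfmbt2 genes include many near-identical copies, and reads that fit more than 1 copy are missing from their counts.

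Mir335 lay above 57 of the 59 Dlk1-Dio3 genes and above all 119 Sfmbt2 genes by mean CPM. Mir483 was below 18 Dlk1-Dio3 genes and 1 Sfmbt2 gene, and Mir675 was below 37 and 4. The median level of the detected genes was 58.1 CPM for the members, 56.8 CPM for Dlk1-Dio3 and 40.8 CPM for Sfmbt2, against 123 CPM for all detected genes. The median log2 ratio, replicate 1 over replicate 2, was −0.27 for the 4 detected members, 0.08 for Dlk1-Dio3, 0.95 for Sfmbt2 and 0.02 for all detected genes. Called genes numbered 0 of 4 members, 3 of 45 in Dlk1-Dio3 and 2 of 5 in Sfmbt2. Over all detected genes the number was 33 of 278 (11.9%). These differences between lists were not tested.

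**Figure D5:**
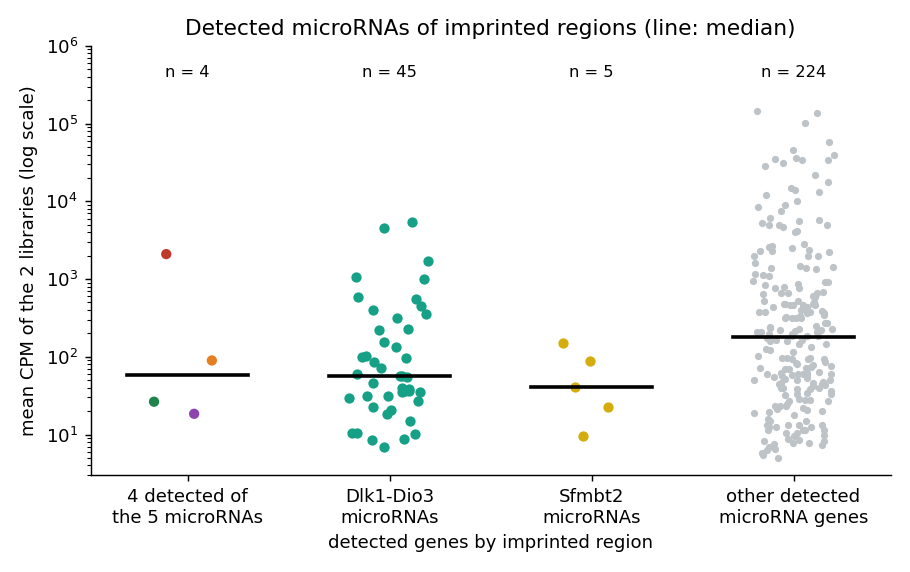
Mean CPM of the 2 libraries on a log scale for detected microRNA genes, with 1 point per gene and the median as a line. From left to right are 4 members, 45 Dlk1-Dio3 genes, 5 Sfmbt2 genes and 224 other genes. The medians of the 3 imprinted groups are 58.1, 56.8 and 40.8 CPM, and Mir335 is the high point of the first.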

How the data were processed

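Per the labels, 2 gastrocnemius libraries of RNA under 30 nt form 1 group. Per the notes deposited with the samples, reads were assigned to mm10 with GENCODE M21. The files hold unnormalized read counts for each microRNA gene as the authors deposited them, for either strand, the own strand and the opposite strand. Aligner and counter: not given in the sources used here. Rows that name no gene, 4 in each file, held 79.3% and 84.1% of the reads listed and were left out. Own-strand counts were used, since small RNA reads keep the strand. CPM values were computed from the own-strand microRNA total of each library.

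Libraries were compared with a two-sided conditional exact binomial test on TMM-scaled library sizes, with Benjamini-Hochberg adjustment over 278 genes with 10 or more counts in each library. Log2 ratios use a prior of 0.5 counts. A quasi-likelihood fit needs a second group and was left out. The edgeR exact test used the common dispersion of an intercept-only fit to the same 2 libraries, so it was kept only as an alternative for the number of calls and says nothing about single genes. All microRNA gene names and positions came from the annotation. The script was tested on data simulated with counting error only, which says nothing about spread between libraries beyond that error. Named were the members, for each detected member the 3 genes nearest in level, the 2 most abundant genes of the other imprinted lists, neighbours within 100 kb, seed relatives, host genes and Mir206. The members, lists and tests were chosen with earlier results of these data known. The neural marker names Mir124-1, Mir124-2 and Mir124-3 were not found. The labels give biological replicate numbers 1 and 2 and separate animal numbers beside 1 shared donor code, and the exact p-values cover counting error in these 2 libraries only. Alternatives changed the scaling, count minimum, strand, denominator, fold minimum, dispersion and libraries used. Tools were edgeR 4.0.16 and DESeq2 1.42.0 in R 4.3.3, and scipy 1.17.1, pandas 2.3.3 and matplotlib 3.10.9 in Python 3.11.15.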

Additional observations from a re-analysis of the deposited data

Results flagged for a closer look

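Mir675 had 3 reads on the strand opposite to the gene in replicate 1 and 5 in replicate 2, in a column the comparisons above do not use. The 5 reads are above the limit of 3 counts, which is what a count of 0 allows and not a measured background. They were 8.33% and 9.80% of its reads of either strand, while Mir335 had 0 and 2 such reads beside 4371 and 4474 on its own strand. Of the 2135 microRNA genes that overlap no other, 12 had any such read in each library, and these reads summed to 33 in replicate 1 and 26 in replicate 2. Of these genes, 3 had more than Mir675 in replicate 1, and 0 had more in replicate 2. Over both libraries Mir203 had 10 such reads, Mir675 and Mir200a had 8 each and Mir122 had 7. Mir296 and Mir298 had 0 in both, and Mir483 had 1 in replicate 1. What these reads come from was not tested.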

How the results depend on the processing

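The log2 ratios of the 4 detected members kept their direction and stayed uncalled with unscaled totals, DESeq2 size factors and counts of either strand. The edgeR exact test takes its dispersion from the same 2 libraries, so staying uncalled there says nothing about stability. Mir335 ranged from 0.12 to 0.20 and the other 3 from −0.35 to −0.21. The number of called genes was 153 without a minimum fold and 7 with the edgeR exact test, against 33, and between 30 and 48 under the other settings. The summed share of the members was 0.224%, and 0.210% to 0.237% when one library was left out. It was 0.0413% of all reads listed, by the larger denominator. On counts of either strand it was 0.306%, because 464605 and 684345 reads ambiguous without strand drop out of the totals. The CPM levels moved with it, to means of 2863 for Mir335, 124 for Mir483, 36.3 for Mir298 and 28.0 for Mir675, against 2097, 89.7, 26.4 and 18.5. The number of detected members was 5 at a minimum of 3 counts and 4 at 30 counts. No paired analysis was possible because there is 1 group. Depth limits Mir296 most, with 6 and 11 counts.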
